A study of Mus musculus with 4 samples.

Results

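Calcium signalling genes that centre on calmodulin were examined in wild-type (WT) mouse primary cortical neurons. RNA that came down with the ribosome was set beside total RNA. The 9 genes were chosen by name and matched by Ensembl identifier, out of 31053 genes in the count tables. They were the CaMKII subunit genes Camk2a, Camk2b, Camk2d and Camk2g, the kinase gene Camk4, the calmodulin genes Calm2 and Calm3, Nrgn (neurogranin) and Ddn (dendrin). All 9 passed the filter on low counts, which left 12336 genes to test. In enhanced crosslinking and immunoprecipitation (eCLIP), RNA is crosslinked to protein in the cell, cut with RNase I and pulled down with an antibody, in this case one that recognises RPS2, which belongs to the small subunit of the ribosome. The study divided IP counts by total RNA counts per gene to estimate how heavily ribosomes occupied each mRNA. There were 2 RPS2 IP libraries, labelled with rRNA depletion as their treatment, and 2 total RNA libraries labelled with no treatment, and all 4 shared the WT genotype and the cell type. According to the methods, the neurons were dissected from embryonic C57BL/6J cortex and cultured with floxuridine, which acts on dividing cells. If depletion was applied as labelled, its effect and that of the IP cannot be told apart.

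Calmodulin is a small EF-hand protein that several genes encode, and on binding calcium it switches on kinases, phosphatases and cyclases. CaMKII is a large multi-subunit kinase that phosphorylates itself once calcium and calmodulin have opened it, and it is among the most abundant proteins of the forebrain synapse. Neurogranin holds calcium-free calmodulin near the postsynaptic membrane and releases it when calcium rises. CaMKIV acts mainly in the nucleus, where it phosphorylates CREB. Dendrin is a postsynaptic protein whose mRNA, like those of Camk2a and Nrgn, is known from dendrites.

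The coding sequences show how far reads of related genes could be told apart, and all are from GENCODE M21 transcripts on mm10, 5′ to 3′ along the mRNA. Calm2 and Calm3 each had 450 coding bases for the same protein of 149 residues. They differed at 78 of those bases, 74 of them at the third position of a codon, which left 82.7% identity. Over their annotated transcripts the longest stretch they shared exactly was 17 bases. The first 120 coding bases are shown because the counts of the calmodulin genes rest on such differences, and capitals mark the 18 positions where these sequences differ.
Calm2: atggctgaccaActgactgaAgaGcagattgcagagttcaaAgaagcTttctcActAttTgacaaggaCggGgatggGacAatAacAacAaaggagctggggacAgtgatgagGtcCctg
Calm3: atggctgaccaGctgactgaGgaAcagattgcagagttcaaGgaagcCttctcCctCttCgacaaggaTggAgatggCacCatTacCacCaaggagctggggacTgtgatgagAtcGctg

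The CaMKII genes are printed over the 60 coding bases around the threonine whose autophosphorylation keeps the kinase active without calcium, residue 287 in Camk2b, Camk2d and Camk2g. These are coding bases 847 to 906, and capitals mark the 24 positions at which the genes are not all the same.
Camk2b: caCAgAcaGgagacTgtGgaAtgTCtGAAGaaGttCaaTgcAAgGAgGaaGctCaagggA
Camk2d: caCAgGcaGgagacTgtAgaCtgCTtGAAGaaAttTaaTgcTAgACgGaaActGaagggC
Camk2g: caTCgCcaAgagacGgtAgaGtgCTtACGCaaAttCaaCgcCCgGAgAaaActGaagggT

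The whole Nrgn coding sequence is shown because it is so short a part of its mRNA, 237 coding bases (16.3% of a transcript of 1453 bases) for 78 residues. Capitals mark coding bases 97 to 132, residues 33 to 44, which encode the IQ motif that binds calmodulin.
Nrgn: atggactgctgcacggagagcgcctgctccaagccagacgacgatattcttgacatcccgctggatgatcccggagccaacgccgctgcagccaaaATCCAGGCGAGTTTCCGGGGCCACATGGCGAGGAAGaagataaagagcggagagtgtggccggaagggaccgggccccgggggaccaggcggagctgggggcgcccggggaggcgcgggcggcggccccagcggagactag

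Windows shared with the transcripts of other genes were counted, since reads that aligned to several places were left out of the counts. Of the 30-base windows of Calm2, 18.6% also occurred in another gene's transcript, mostly in Gm7308, Gm15720 and Gm14480, and 9.72% of its 50-base windows did. For Calm3 the shares were 5.20% and 2.52%, nearly all in Gm5881. Reads from such windows may be missing from both calmodulin counts, with a larger share of windows for Calm2 than for Calm3. How many reads were lost was not tested, and these shares do not measure it. The shares at 30 bases were 0.843%, 0.361% and 0.136% in Camk2a, Camk2b and Camk2d, and 0 windows of Camk2g, Camk4, Nrgn and Ddn were shared.

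The libraries held 4899718 to 16460545 counts. Gm42418 alone, an annotated lincRNA, took 42.6% and 27.9% of them in IP replicates 1 and 2. In total RNA replicates 1 and 2 it took 39.8% and 15.3%. The study removed single cells with high counts of this gene. What its reads stem from here was not tested. Markers of neurons (5 of 5 tested) summed to 3286 to 3924 CPM (counts scaled to the effective library size) in total RNA and 3898 to 3940 CPM in the IP, with no marker at 0. GABAergic markers (3 of 3 tested) summed to 1049 to 1181 CPM over the 4 libraries. In CPM, summed astrocyte markers (6 of 6 tested) differed most by replicate number. They were higher in the IP than in total RNA of the same number, at 2081 CPM in IP replicate 1 and 1729 CPM in total RNA replicate 1 against 687 and 666 CPM in replicate 2. Microglial markers (2 of 5 tested) were also higher in replicate 1, and relative to their low level they differed more than the astrocyte markers. They summed to 23.1 CPM in IP replicate 1 and 25.8 CPM in total RNA replicate 1, against 3.95 and 2.96 CPM in replicate 2. The endothelial marker Cldn5 was at 0 in every library. The part of these cells in the results was not tested. In bulk RNA, fewer cells of a type and less RNA per cell cannot be told apart.

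Nrgn was the most abundant of the 9 mRNAs per unit of exonic length in all 4 libraries. To compare genes, CPM were divided by the exonic length of the gene in kilobases. In total RNA, Nrgn stood at 688 ± 115 CPM per kb (SD, n = 2) and ranked 8 among the 12336 genes, and in the IP it ranked 5. Camk2a followed at 227 ± 17.6 CPM per kb (rank 54) and Calm3 at 210 ± 21.4 (rank 60), and the values of these genes overlapped in total RNA. Calm2 at 100.3 ± 25.5 and Camk2b at 99.2 ± 8.79 CPM per kb (ranks 186 and 191) also overlapped. Ddn lay below them at 70.6 ± 4.61 CPM per kb (rank 311), with both libraries under both of Calm2 and of Camk2b.

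The other kinase genes were much lower per unit length. Camk2g had 18.8 ± 1.92 CPM per kb in total RNA (rank 1687), Camk4 had 6.71 ± 1.04 (rank 4196) and Camk2d had 5.56 ± 2.60 (rank 4819, n = 2 for each). The values of Camk4 and Camk2d overlapped. The exonic length of Camk2d, 22493 bases, joins many alternative exons and ends, and its level was 22.7 in place of 5.56 CPM per kb when divided by the 5524 bases of its longest coding transcript. On that scale Camk4 stood at 30.4, Camk2g at 32.5 and Camk2a at 341 CPM per kb, with Nrgn still highest at 688. Division by the shortest annotated coding transcript, which for Camk2a has 499 bases, changed the order, with Camk2a at 3396, Calm3 at 1039 and Ddn at 726 CPM per kb, all above Nrgn. In the IP, Calm3 stood above Camk2a in both libraries (ranks 31 and 49 by the mean), while in total RNA the order of these genes differed between replicates.

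**Figure D1:**
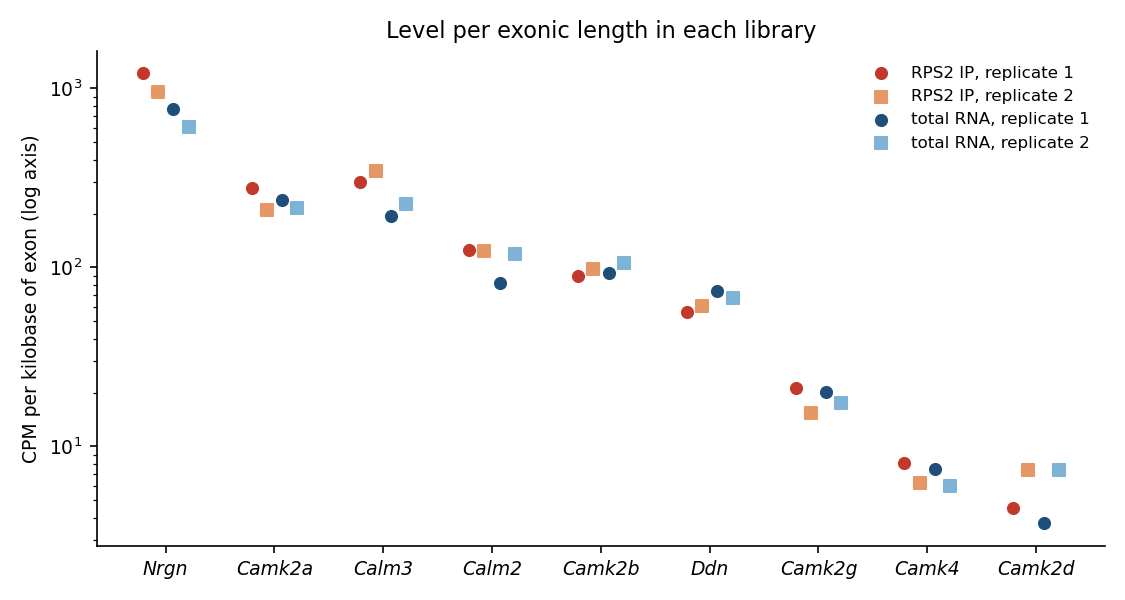
Level of each of the 9 genes in CPM per kilobase of exonic length (log axis), with one point per library, red and orange for RPS2 IP and dark and light blue for total RNA. Nrgn is highest in all 4 libraries, and Camk2g, Camk4 and Camk2d lie lowest.

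The genes lie on 8 chromosomes (coordinates on mm10 as the count tables give them). Nrgn is on the minus strand of chromosome 9 at 37544492 to 37552904, Calm3 on the minus strand of chromosome 7 at 16915379 to 16924114 and Calm2 on the minus strand of chromosome 17 at 87433412 to 87446935. Ddn lies on the minus strand of chromosome 15 at 98803777 to 98809490, Camk2b on the minus strand of chromosome 11 at 5969644 to 6066362 and Camk2g on the minus strand of chromosome 14 at 20734875 to 20794088. Camk2d lies on the plus strand of chromosome 3 at 126596302 to 126846326. Camk2a and Camk4 lie on the plus strand of chromosome 18, at 60925618 to 60988152 and 32939041 to 33195767. Counting used strand, and 0% of any member's exonic bases overlapped another gene on the same strand. Exons of a gene on the opposite strand covered 4.68% of Ddn and 1.48% of Camk4.

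Nrgn and Calm3 were higher in the RPS2 IP than in total RNA, by nearly the same ratio in both replicates, while the IP and total RNA values of the CaMKII subunit genes overlapped. In the test without pairing 0 of the 9 genes passed an adjusted p of 0.05 (edgeR quasi-likelihood test, Benjamini-Hochberg over 12336 genes, adjusted p = 1.00 for each), and 0.0% of all genes did. DESeq2 without the block also called 0 of the 9. Nrgn and Calm3 had unadjusted p of 0.0407 and 0.0317, a level that 2.83% of all genes reached. Total RNA was taken from the samples before the IP, according to the methods, and libraries of one replicate number were read as one sample. The labels give only the number. The comparison was therefore also made with the replicate number as a block. In that fit 3 of the 9 genes were higher (Nrgn, Calm3 and Calm2) and 1 was lower (Ddn), against 6.63% and 7.55% of all genes tested. Cell type markers also moved with the IP in that fit. Of the 5 neuron markers 2 were higher, Snap25 (log2 fold change 0.37, adjusted p = 0.00273) and Syp (0.31, adjusted p = 0.0262), and of the 6 astrocyte markers 2 were higher, Aqp4 (0.49, adjusted p = 0.000849) and Slc1a3 (0.34, adjusted p = 0.00840, edgeR), in the same direction as Nrgn and Calm3. The part of these shifts in the results on the 9 genes was not tested. With 2 libraries against 2, an exact permutation test of a single gene cannot give a two-sided p below 0.33.

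Nrgn was at 1768 CPM in IP replicate 1 and 1398 CPM in IP replicate 2, against 1118 and 882 CPM in total RNA. Both IP values lay above both total RNA values, and replicate 2 was lower than replicate 1 in each kind of library. The log2 ratio of IP to total RNA was 0.66 in both pairs. With the block Nrgn rose by 0.66 ± 0.10 on the log2 scale (SE), a fold of 1.58 with an adjusted p of 3.33e-08 (edgeR).

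Calm3 had 724 and 834 CPM in the IP against 472 and 546 CPM in total RNA. Here replicate 2 was the higher one in each kind of library, and again the groups did not overlap. Its log2 ratios were 0.62 and 0.61, and with the block it rose by 0.61 ± 0.10 (SE), a fold of 1.53 with an adjusted p of 1.10e-07 (edgeR).

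Calm2, which encodes the same protein, had 183 and 181 CPM in the IP, against 121 and 174 CPM for total RNA. The IP values were nearly alike, and the groups were set apart mainly by total RNA replicate 1, which was low. Its log2 ratio was 0.60 in replicate 1 and 0.058 in replicate 2. With the block Calm2 had a log2 fold change of 0.32 ± 0.10 (SE, adjusted p = 0.0172, edgeR). This SE and p, like those of the other members, rest on a spread pooled over all genes. They do not reflect the gap between the Calm2 ratios of the replicates. Without total RNA replicate 1 the unpaired fold change of Calm2 fell to 0.068 on the log2 scale. The ratio of Calm3 to Calm2 counts did not shift beyond counting error in replicate 1 (log2 change from total RNA to IP 0.014, 95% counting interval −0.14 to 0.16) and shifted by 0.55 (0.43 to 0.68) in replicate 2. Counting intervals do not cover differences between samples.

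Ddn stood at 213 and 229 CPM with the IP, compared with 279 and 255 CPM in total RNA. Both IP values lay below both total RNA values. The log2 ratios were −0.39 and −0.15, and with the block Ddn had a log2 fold change of −0.27 ± 0.099 (SE, adjusted p = 0.0439, edgeR). The ratio of Nrgn to Ddn counts was 2.07-fold higher in the IP than in total RNA in replicate 1 and 1.76-fold higher in replicate 2. Counted over all genes tested, both IP libraries lay above both total RNA libraries in 16.9% and below them in 14.9%, beside 3 (Nrgn, Calm3, Calm2) and 1 (Ddn) of these 9.

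Camk2a, the gene of the alpha subunit and the one with the most reads of the 9, had IP values of 2077 and 1571 CPM beside total RNA values of 1787 and 1602 CPM. IP replicate 1 was the highest and IP replicate 2 the lowest of the 4 libraries, so the groups overlapped. The log2 ratios were 0.22 (95% counting interval 0.18 to 0.25) and −0.028 (−0.064 to 0.0078), a gap between replicates that lies outside the counting error. With the block Camk2a had a log2 fold change of 0.094 ± 0.11 (SE, adjusted p = 0.628, edgeR).

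Camk2b, the beta subunit that binds actin, had 819 and 889 CPM in the IP against 848 and 962 CPM in total RNA. Each IP library was slightly below the total RNA library of its number, with log2 ratios of −0.051 and −0.11, and the groups overlapped. With the block the fold change was −0.082 ± 0.10 on the log2 scale (SE, adjusted p = 0.662, edgeR). Camk2g gave 135 and 97.7 CPM after IP and 129 and 112 CPM without it. Its log2 ratios, 0.062 and −0.19, pointed in opposite directions. For Camk2d the IP gave 102 and 165 CPM and total RNA 83.7 and 167 CPM, which split the libraries by replicate number and not by IP. Camk2d was 1.99-fold higher in replicate 2 than in replicate 1 of total RNA and 1.62-fold higher in the IP. The astrocyte marker sums went the other way, and their part in this difference was not tested.

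Camk4 reached 99.96 and 77.4 CPM with the IP, next to 91.7 and 73.6 CPM for total RNA. Replicate 1 was higher in each kind of library and the groups overlapped. Log2 ratios were 0.12 and 0.072, and adjusted p with the block was 0.626 (edgeR). For Camk2g and Camk2d it was 0.753 and 0.496. Over the 9 genes, 4 had a higher IP value in both pairs (Nrgn, Calm3, Calm2 and Camk4) and 2 a lower one (Camk2b and Ddn), beside 34.3% and 32.2% of all genes tested. The median log2 ratio of the 9 was 0.22 in replicate 1 and −0.014 in replicate 2, against 0.012 and 0.0075 for all genes. A p that missed the threshold does not show that a CaMKII gene had equal shares in IP and total RNA, and the SE of about 0.10 leaves changes of this size undecided.

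**Figure D2:**
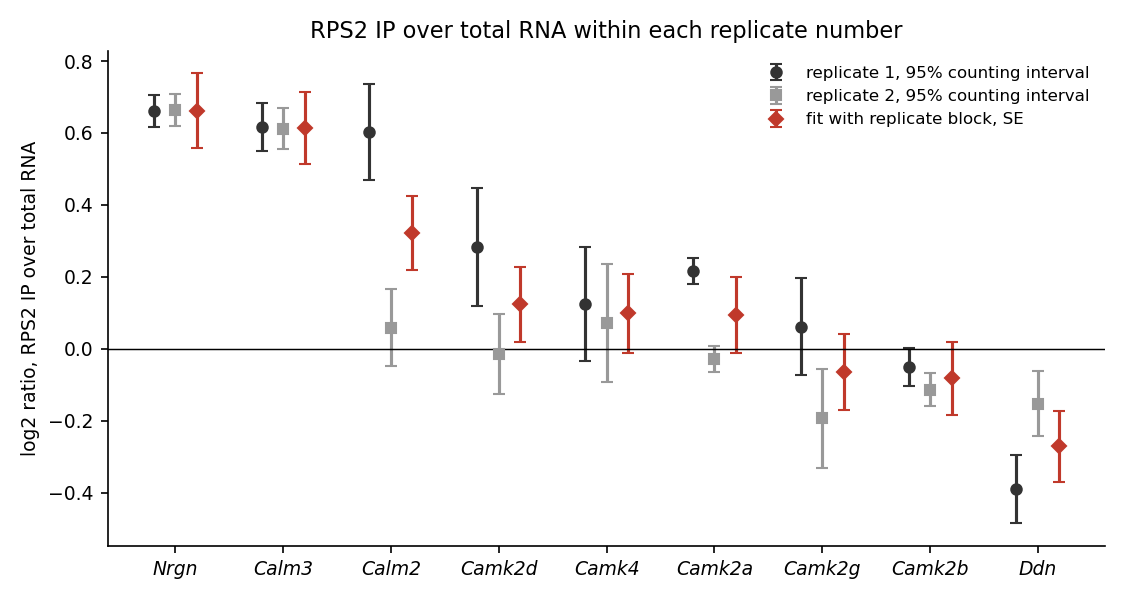
Log2 ratio of RPS2 IP to total RNA for each of the 9 genes, with one point per replicate number (bars, 95% counting interval) and the fold change of the fit with the replicate block shown with its standard error. Nrgn and Calm3 have matching ratios of 0.61 to 0.66 in both replicates, Calm2 has 0.60 and 0.058, and Ddn is the lowest at −0.39 and −0.15.

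**Figure D3:**
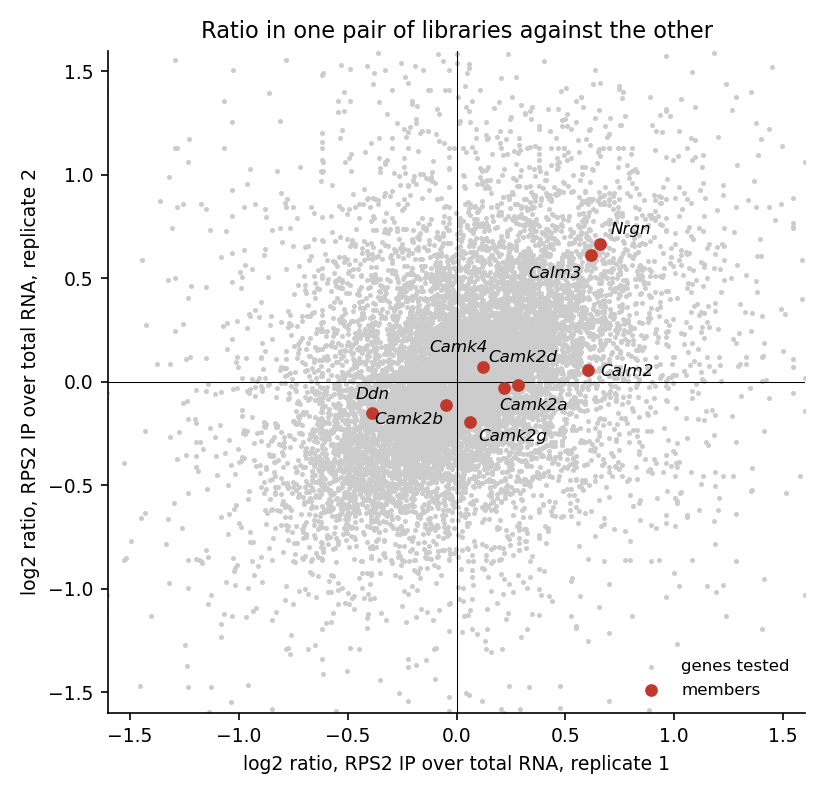
Log2 ratio of IP to total RNA in replicate 1 (x axis) against that in replicate 2 (y axis) for the genes tested in grey and the 9 genes (members) in red, with 218 genes outside the axis limit of 1.6 not drawn. Nrgn and Calm3 lie on the diagonal at the upper right, Calm2 lies far to the right of it, and Ddn lies at the lower left.

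The calls of Calm2 and Ddn were lost when GC content and length of the genes were allowed for, and those of Nrgn and Calm3 were kept. Annotated transcripts of Calm2 had 43.6% GC, the lowest of the 9, and those of Ddn had 60.9%, the highest. When a smooth term for GC content and exonic length was fitted as an offset together with the block, Nrgn kept a log2 fold change of 0.71 (adjusted p = 1.15e-09) and Calm3 one of 0.63 (adjusted p = 3.17e-08, edgeR). Calm2 went to −0.075 (adjusted p = 0.758) and Ddn to 0.014 (adjusted p = 0.968). Under this offset 2 of the 9 genes were higher and 0 lower, against 4.78% and 2.55% of all genes. Camk2a, Camk2b and Camk4 had 0.24, 0.19 and 0.26 there (adjusted p = 0.155, 0.273 and 0.127). Calm3 passed in all 6 fits with the block that were run. Nrgn passed in 5 of them and missed with library size as the only scaling (log2 fold change 0.58, adjusted p = 0.0504), where the median of all genes shifted to −0.073. Calm2 and Ddn passed in 2 of the 6 each.

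**Figure D4:**
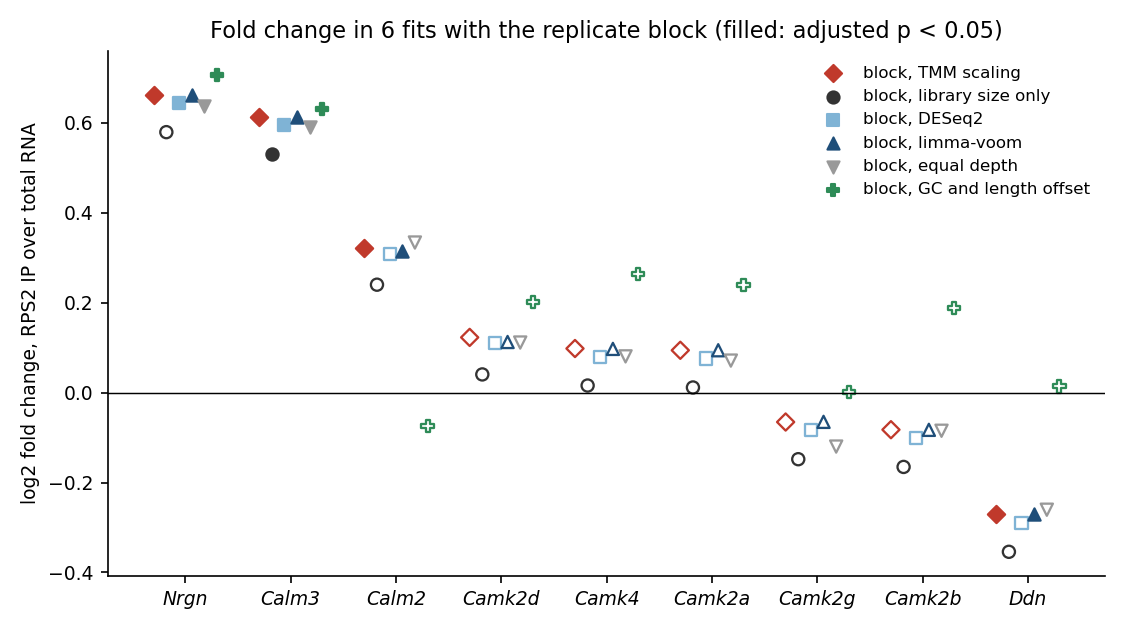
Log2 fold change of RPS2 IP over total RNA for each gene in 6 fits that all include the replicate block, with filled symbols for an adjusted p under 0.05 and open symbols otherwise. Calm3 is filled in 6 of 6 and Nrgn in 5 of 6 fits, while Calm2 and Ddn fall to −0.075 and 0.014 under the GC and length offset.

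The CaMKII transcript pool was made mostly of Camk2a in every library, and its make-up overlapped between IP and total RNA. Each share is a gene's CPM per kilobase over the sum of the 4 CaMKII genes. Camk2a made up 70.7% and 63.7% of the pool in the IP, compared with 67.2% and 62.2% for total RNA, means of 67.2% ± 4.95 and 64.7% ± 3.52 (SD, n = 2). Camk2b made up 22.8% and 29.5% after IP, next to 26.1% and 30.6% for total RNA. Camk2g held 4.62% to 5.66% in all libraries and Camk2d 1.04% to 2.22%. The groups overlapped for all 4 genes, and replicate 2 had the higher shares of Camk2b and Camk2d in both kinds of library. Within a replicate the ratio of Camk2a to Camk2b counts was higher in the IP than in total RNA, by 0.27 on the log2 scale in replicate 1 (95% counting interval 0.20 to 0.33) and by 0.086 in replicate 2 (0.027 to 0.14). These ratios do not allow for GC content and length. With that offset the log2 fold changes of Camk2a and Camk2b lay closer together, at 0.24 and 0.19, than with the block alone, at 0.094 and −0.082. Division by the longest coding transcript instead of the exonic length gave Camk2a 54.9%, Camk2b 36.2%, Camk2g 5.24% and Camk2d 3.65% in total RNA. The shortest coding transcript moved Camk2a and Camk2b the other way, to 77.2% and 12.9%, with Camk2g at 5.44% and Camk2d at 4.44%, so the size of each share rests on which length is used.

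**Figure D5:**
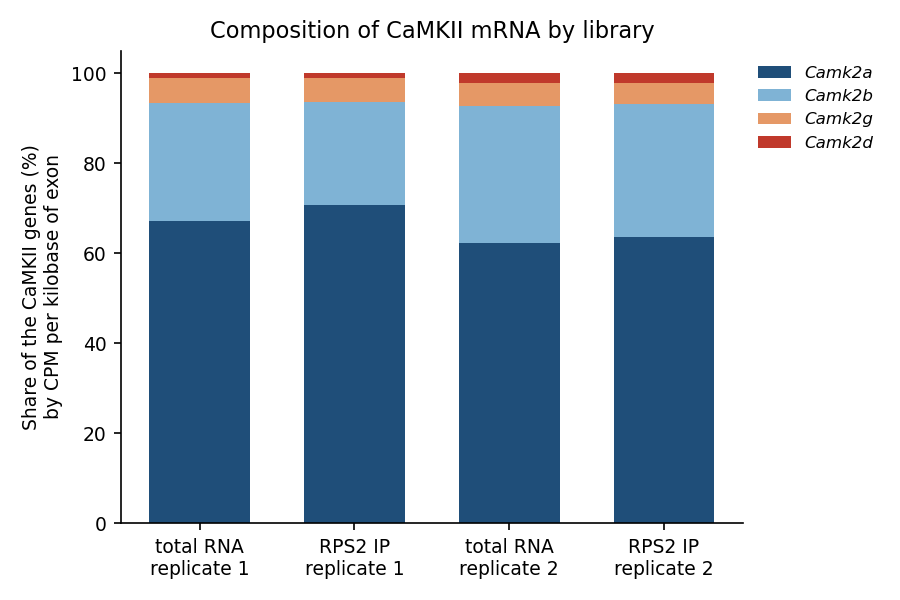
Share of each CaMKII gene in the sum of the 4 CaMKII genes in percent of CPM per kilobase, as one bar per library starting at 0. Camk2a takes 62.2% to 70.7% and Camk2b 22.8% to 30.6% in every library, and the bars of one replicate number resemble each other more than those of one kind of library.

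Other genes of the calcium and calmodulin pathway were taken from 8 lists with 54 genes, all of which were tested. Without pairing 0 of the 54 passed, and 0 reached an unadjusted p of 0.05. With the block 6 were higher and 10 were lower, beside 6.63% and 7.55% of all genes tested, and the median log2 fold change was 0.019, against 0.011 for all genes tested. In the CaM kinase cascade 1 of 8 was higher, Camk1d (CaMKI delta, log2 fold change 0.40, adjusted p = 0.0164). Lower were Dapk1 (−0.41, adjusted p = 0.00237), a calmodulin-regulated kinase of cell death pathways, and Eef2k (−0.33, adjusted p = 0.0393, edgeR), the calmodulin-dependent kinase that phosphorylates elongation factor eEF2. The most abundant of this list per length, Camkv, had −0.028 and Camk1g −0.032. Neither of the 2 genes for CaMKII inhibitor proteins passed with the block alone, at −0.21 for Camk2n1 and 0.12 for Camk2n2, and Camk2n2 passed with the GC and length offset (0.30, adjusted p = 0.0477).

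Among 5 genes listed for proteins that sequester calmodulin, Pcp4l1 was higher (log2 fold change 0.65, adjusted p = 3.99e-06, edgeR). Pcp4l1 was listed as a relative of the calmodulin-binding Pcp4, and whether its own protein binds calmodulin was not tested. Marcks, a membrane protein that binds calmodulin and actin, was lower (−0.44, adjusted p = 0.000405, edgeR). Gap43, the axonal counterpart of neurogranin that binds calmodulin through an IQ motif of its own, had −0.14 (adjusted p = 0.439) with the block alone and was lower with the GC and length offset (−0.42, adjusted p = 0.00203). Of 8 genes of calcineurin, the calcium and calmodulin-dependent phosphatase, Rcan2, which encodes a calcineurin regulator, was higher (0.41, adjusted p = 0.00342). The subunit genes Ppp3ca and Ppp3r1 had 0.22 and 0.26 and did not pass. Adcy1, a calmodulin-stimulated adenylyl cyclase, was the only one of 7 cyclase, phosphodiesterase and NO synthase genes to pass, at −0.33 (adjusted p = 0.0103), and Adcy3 had −0.25.

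Other neuronal EF-hand calcium sensors gave 3 higher genes and 1 lower gene of 9 (all genes 6.63% and 7.55%). Hpca (hippocalcin) had a log2 fold change of 0.28, Hpcal4 had 0.44 and Vsnl1 had 0.38, and Cabp1, a calmodulin-like regulator of ion channels, had −0.30 (adjusted p = 0.0371, 0.0005, 0.00245 and 0.0377, edgeR). In the CREB arm of Camk4 1 of 6 passed, the coactivator gene Crebbp at −0.46 (adjusted p = 0.000182), and Crtc1 had 0.049, which became 0.40 with the offset (adjusted p = 0.00754). Of 9 other mRNAs known from dendrites or the postsynapse 4 were lower and 0 higher, beside 7.55% and 6.63% of all genes tested. They were Arc (−0.39), Shank1 (−0.41), Shank3 (−0.45) and Dlgap3 (−0.56), all with the same sign as Ddn, and Ppp1r9b had −0.10. With the GC and length offset these 4 genes moved to −0.22, 0.093, 0.020 and −0.16 and none of them passed (adjusted p = 0.173, 0.667, 0.949 and 0.389). Of the other pathway genes called with the block, Vsnl1 went to 0.0011 (adjusted p = 0.998), Cabp1 to −0.065 (0.806), Adcy1 to −0.11 (0.607), Eef2k to −0.20 (0.334), Dapk1 to −0.26 (0.108) and Crebbp to −0.27 (0.0783), so that these calls too were lost. Under that offset 8 of the 54 genes were higher and 3 lower, beside 4.78% and 2.55% of all genes, with Pcp4l1 (0.49), Hpcal4 (0.51), Hpca (0.37), Camk1d (0.44) and Rcan2 (0.33) still higher and Marcks (−0.60) still lower. Gained calls were Camk2n2, Crtc1 and the NO synthase gene Nos1 (0.36) as higher, and Gap43 and the calcium buffer gene Calb1 (−0.76) as lower. Without the offset, the log2 ratios in replicates 1 and 2 had opposite signs for Camk2n2 (−0.17 and 0.41), Crtc1 (−0.058 and 0.16) and Nos1 (−0.065 and 0.23). Gap43 and Calb1 were lower in both replicates. Nos1 and Calb1 were named after their values were seen.

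Likeness to Camk2a and Nrgn over the 4 libraries was measured as the Euclidean distance of log2 CPM after each gene was centred on its own mean, among 2908 genes with at least 50 CPM. Nearest to Camk2a were Aldoc (distance 0.024), an astrocyte marker here, and Fam163b (0.036). Nearest to Nrgn were Cox8a (0.075), Cd200 (0.14) and Itm2c (0.15), each with both IP values above both total RNA values. With 4 libraries, read as 2 samples, many genes can share a pattern, and the distances are a description only.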

How the data were processed

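Libraries of RNA crosslinked to RPS2 (n = 2) and of total RNA (n = 2) from primary cortical neurons of WT mice were analysed. The deposited files hold raw counts per gene, which the authors made from reads aligned to mm10 with featureCounts 1.5.3, per the file headers, in stranded mode and without reads that aligned to several places or fell in several genes. No removal of PCR duplicates was stated, so counting intervals cover counting error only. Symbols were taken from GENCODE M21 by identifier (30934 of 31053 matched, 9 of 9 members).

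Counts were filtered with filterByExpr, scaled by TMM and tested in R 4.3.3 with edgeR 4.0.16 (glmQLFit, glmQLFTest, two-sided, Benjamini-Hochberg, threshold 0.05) over 12336 genes. Pair ratios are differences of log2 CPM with a prior count of 2. Level scales use the exonic length in the files or the longest or shortest coding transcript of M21. Libraries of one number were treated as paired, which the labels do not state. The methods say that total RNA was taken from samples before the IP. Same-numbered libraries also deviated from their group means together (Pearson correlation over genes 0.733). With the block each gene had 1 residual degree of freedom, and all genes shared the fitted dispersion (biological coefficient of variation 7.93%, against 29.7% without the block). The labels do not say whether replicates were separate cultures, so p-values without the block measure the spread between these samples. With the block, p-values and SE rest on the spread left within pairs, pooled over all genes. They do not measure a gene's own spread.

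DESeq2 1.42.0, limma-voom (limma 3.58.1), other filters, scalings, thinning to equal depth, and an offset fitted on GC content and length (a spline with 5 degrees of freedom) were alternatives. In simulated data, libraries of a pair shared a profile and all genes had the same dispersion, as the fit with the block assumes. On these data with 12214 genes, the fit with the block recovered 95 of 100 genes changed 2.0-fold and 39 of 100 changed 1.41-fold. That fit made 7 false calls, and the fit without the block recovered 0 of either size. The changed genes were drawn at random among genes above a minimum mean count and were not matched to the counts of the members. The simulation cannot show how the fits behave when pair ratios vary from gene to gene. The members and lists were chosen with earlier results of these data known. Genes named were the members, the listed pathway genes called with the block, the 2 highest per length of each list, and the 3 nearest to Camk2a and to Nrgn. Others were named after their values were seen. Values of some genes under these rules are not reported here.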

Additional observations from a re-analysis of the deposited data

How the results depend on the processing

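Without the block 0 members and 0 pathway genes were called in any fit run, and over all genes the number lower was 5 with DESeq2 and 14 without the low-count filter. With the block alone, 818 genes were higher and 931 lower (members 3 and 1, pathway genes 6 and 10). The other blocked fits gave 283 and 878 with library size only (members 1 and 0, pathway 1 and 8), 158 and 382 with DESeq2 (members 2 and 0, pathway 2 and 8), 685 and 927 with limma-voom (members 3 and 1, pathway 6 and 10), 590 and 315 with the GC and length offset (members 2 and 0, pathway 8 and 3) and 439 and 635 after thinning to equal depth (members 2 and 0, pathway 4 and 7). Of 153 member fold changes under 17 alternatives, 124 kept direction and side of the threshold, 15 passed it and 14 turned direction, 8 of these when a library was left out. Those that turned otherwise were Camk2a (−0.0015) and Camk2d (−0.041) with library size only, and Camk2b (0.19), Camk2g (0.0020), Calm2 (−0.075) and Ddn (0.014) with the block and offset. The cause was not tested.

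With 1 library left out, log2 fold changes ran from 0.48 to 0.84 for Nrgn, 0.50 to 0.72 for Calm3, 0.068 to 0.59 for Calm2, −0.34 to −0.20 for Ddn, −0.11 to 0.29 for Camk2a, −0.17 to 0.0077 for Camk2b, −0.32 to 0.67 for Camk2d, −0.30 to 0.16 for Camk2g and −0.097 to 0.27 for Camk4, and the median of the members from −0.028 to 0.27. The number of genes lower ran from 1 to 8, and 0 were higher. Leaving out 1 library moved the shares to 63.7% to 70.7% (Camk2a IP), 62.2% to 67.2% (Camk2a total RNA), 22.8% to 29.5% and 26.1% to 30.6% (Camk2b), 1.15% to 2.22% and 1.04% to 2.15% (Camk2d), and 4.62% to 5.35% and 5.06% to 5.66% (Camk2g). From counts not divided by length the shares were 62.0% and 59.6% for Camk2a, 31.8% for Camk2b in total RNA, 4.65% and 4.40% for Camk2d and 3.95% and 4.23% for Camk2g. With 2 libraries a group, a change of 1.41-fold was mostly missed in simulated data that followed the assumptions of the fit with the block.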
